A study of Homo sapiens with 6 samples.

Results

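The terminal fucosyltransferases that build H and Lewis antigens were examined on 6 single-colour expression arrays of HCT116, a human colorectal cancer cell line with microsatellite instability. The genes FUT1, FUT2, FUT3, FUT4, FUT5, FUT6, FUT7 and FUT9 were sought on a focused glycosylation-gene array by matching the RefSeq accession inside each probe set's name to a gene symbol. All 8 genes had a probe set; FUT3 had 2, which gave 9 of the 1259 probe sets on the array. The group labelled +DOX was 3 arrays of cells given doxycycline and activin A. Those labelled -DOX were 3 arrays of cells given activin A alone. By the sample titles both groups carried a doxycycline-inducible wild-type ACVR2 gene, whereas the source labels name TGFBR2, ACVR2 and AIM2 together. No dose or duration, no number of clones, no cells given doxycycline without the inducible gene and no cells lacking activin A appear in the labels used here, so an effect of the drug and one of the induced gene cannot be told apart. The labels do not say that the replicates were separate cultures, so p-values measure only the spread between these arrays, which may be technical. The study's interest was in how genes commonly inactivated in microsatellite-unstable tumours bear on the glycans of the cell surface, and the question here is whether these fucosyltransferases differ when doxycycline is given.

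Fucosyltransferases of this kind work in the Golgi and move fucose from GDP-fucose onto the outer ends of glycan chains. The alpha-1,2 enzymes FUT1 and FUT2 make the H antigen, the base on which blood groups A and B are built. The alpha-1,3 and alpha-1,4 enzymes add fucose to N-acetylglucosamine further in, and so make Lewis a and Lewis b on type 1 chains, and Lewis x, Lewis y and, on sialylated chains, sialyl Lewis x on type 2 chains. Lewis antigens are carried by colorectal tumours, and sialylated forms such as sialyl Lewis x are read by selectins on blood vessels. Activin receptors signal through SMAD proteins, some of which bind the letters CAGAC in DNA.

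RefSeq promoter windows (build GRCh38.p14) were matched by symbol for 7 of the 8 genes, FUT5 having no entry. The windows of FUT4 and FUT1, the members with the largest differences, and of FUT3, the member whose groups did not overlap, are printed from 250 bases before the start up to it, with CAGAC or its reverse complement GTCTG on the printed strand in capitals. They lie at chr11:94543671-94543920 on the plus strand for FUT4, chr19:48755359-48755608 on the minus strand for FUT1, and chr19:5851450-5851699 on the minus strand for FUT3.
FUT4: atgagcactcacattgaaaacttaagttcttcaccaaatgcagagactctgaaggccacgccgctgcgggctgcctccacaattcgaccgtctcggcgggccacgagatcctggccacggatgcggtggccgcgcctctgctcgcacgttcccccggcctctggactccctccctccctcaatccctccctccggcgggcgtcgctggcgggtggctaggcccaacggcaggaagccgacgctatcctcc
FUT1: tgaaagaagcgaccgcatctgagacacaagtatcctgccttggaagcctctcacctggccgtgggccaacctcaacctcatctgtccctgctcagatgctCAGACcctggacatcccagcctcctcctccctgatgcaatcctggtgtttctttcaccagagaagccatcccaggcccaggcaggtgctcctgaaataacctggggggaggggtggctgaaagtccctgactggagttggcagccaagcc
FUT3: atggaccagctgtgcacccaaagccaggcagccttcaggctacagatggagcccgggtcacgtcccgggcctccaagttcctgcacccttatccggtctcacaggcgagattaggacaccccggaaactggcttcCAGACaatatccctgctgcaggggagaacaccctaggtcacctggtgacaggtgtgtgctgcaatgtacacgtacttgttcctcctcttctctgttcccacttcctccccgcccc
The letters occurred once in the FUT1 window, starting 150 bases before the start, and once in that of FUT3, starting 115 bases before it. The FUT4 window held none. Among the other members, GTCTG occurred once in the window of FUT6, and neither form in those of FUT2, FUT7 and FUT9 or in a second FUT1 window at a start further into the gene. That made 3 of 8 member windows, against 38.0% of the 35116 windows in the table. A match describes letters only, and no binding was measured.

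Before the members, the induced gene was examined. ACVR2A, the activin receptor gene, read 8.15, 8.02 and 8.08 log2 units in +DOX replicates 1, 2 and 3, against 8.25, 8.07 and 8.70 in -DOX. The difference was -0.26 (SE 0.16; limma, adjusted p = 0.710), so the deposited values show no higher level under the label +DOX. The ACVR2A difference was -0.08 without -DOX replicate 3 and -0.39 without -DOX replicate 2. TGFBR2 differed by -0.35 (SE 0.21; limma, adjusted p = 0.704), and by -0.16 and -0.58 without the same arrays in turn; AIM2 was not analysed here. Whether the ACVR2A probes lie in the introduced sequence is not known, and groups are therefore named by label. Over all 1259 probe sets, 0 (0.0%) passed an adjusted p of 0.05 with limma, and 98 (7.78%) had an unadjusted p under 0.05. The -DOX replicate 3 array stood apart: its correlations with the other arrays, over probe sets, ran from 0.982 to 0.991, and those among the rest from 0.995 to 0.999. It was the highest of the 6 arrays for 26.0% of all probe sets and the lowest for 35.6%, together 61.6%. Between replicates, the typical (median) SD was 0.0457 in +DOX and 0.0902 in -DOX. Of the colon epithelium markers sought, LGALS4, MUC2 and MUC13 were measured, and they averaged 7.30, 7.27 and 6.81 in +DOX and 7.30, 7.29 and 6.89 in -DOX. Of 13 markers of blood, vessel, stromal and neural cells 9 were measured. In +DOX 2 of them were higher and 7 lower, against 55.2% lower over the 927 genes with a symbol. Their summed log2 levels ran from 60.88 to 60.94 over the +DOX arrays and from 61.04 to 61.17 over the -DOX arrays. These sums were not corrected for the array medians, which ran from 7.61 to 7.65. The files hold no detection calls, so neither list shows which cells were present.

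None of the 9 fucosyltransferase probe sets passed the threshold, as none did on the whole array. Lower values under doxycycline were seen for 7 of the 9 probe sets, against 54.6% of all probe sets, and higher values for 2. FUT3 enters that count with both of its probe sets. By gene, 6 of 8 were lower, against 55.2% of the 927 genes with a symbol. FUT5 and FUT6, among the lower ones, turned to 0.0067 and 0.0090 once each array was centred on its median. The median difference of the 9 was -0.05 log2 units, against -0.01 over all probe sets, and their median absolute difference was 0.0757, against 0.0580. An unadjusted p under 0.05 was reached by 0 of the 9. FUT4 and FUT1 had differences beyond 0.1 log2 units, a size that 35.8% of all probe sets exceeded. Non-overlapping groups were seen for 1 of the 9 probe sets, against 15.8% of all. All 9 confidence intervals held 0, and their half-widths ran from 0.0924 to 0.338 log2 units. RNA came from whole cultures, so fewer cells carrying a transcript and less of it per cell cannot be told apart. Levels are on the log2 scale, and those of different probe sets are not read as relative amounts of transcript. Where a probe set is called brighter or dim, only its signal is meant.

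**Figure D1:**
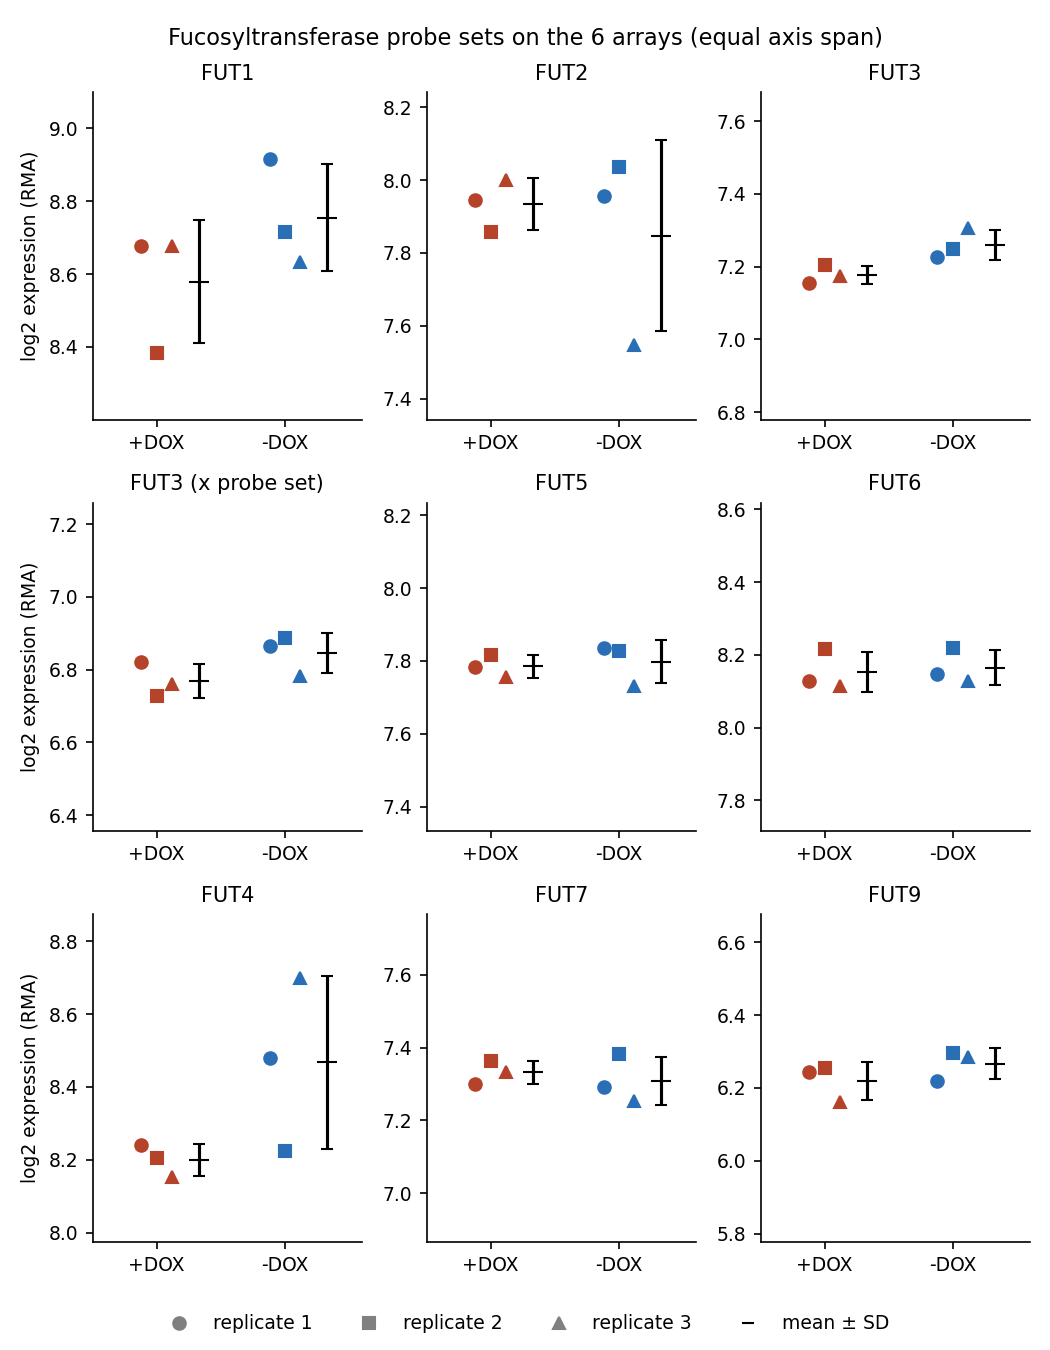
Log2 expression (RMA) of the 9 fucosyltransferase probe sets on each array, +DOX left and -DOX right, with the mean ± SD (n = 3) beside the points; symbols mark the replicate and all vertical axes span the same number of log2 units. FUT4 shows 2 high -DOX arrays at 8.48 and 8.70, FUT2 a single low -DOX array at 7.55, and FUT3 is the one probe set whose groups do not overlap.

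The alpha-1,2 enzymes had differences of opposite sign. FUT1, whose product makes the H antigen of red cells, read 8.68, 8.38 and 8.68 in +DOX replicates 1, 2 and 3, against 8.92, 8.71 and 8.63 in -DOX. The groups overlapped, with +DOX replicate 2 the lowest array and -DOX replicate 1 the highest. The means were 8.58 ± 0.17 in +DOX and 8.76 ± 0.15 in -DOX (SD, n = 3 each). The difference was -0.18 (SE 0.11; 95% confidence interval -0.46 to 0.11; limma, adjusted p = 0.710), a ratio of 0.885. That value rested on those outer arrays, since it was -0.08 without +DOX replicate 2 and -0.09 without -DOX replicate 1. The exact two-sided permutation p was 0.4, where 3 against 3 arrays can give no p below 0.1.

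FUT2, the secretor gene, whose enzyme makes H antigen in mucosal epithelia, read 7.95, 7.86 and 8.0 in +DOX, against 7.96, 8.04 and 7.55 in -DOX. The arrays lay close together except for -DOX replicate 3, which stood below the rest. The means were 7.93 ± 0.07 in +DOX and 7.85 ± 0.26 in -DOX, and the difference was 0.09 (SE 0.14; 95% confidence interval -0.25 to 0.43; limma, adjusted p = 0.834). Without -DOX replicate 3 the sign turned, to -0.06, and without -DOX replicate 2 the difference was 0.18. The exact permutation test gave a p of 0.9. FUT2 had the widest confidence interval of the members.

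FUT3, FUT5 and FUT6 are closely related genes that follow one another on chromosome 19, with FUT3 between FUT6 and FUT5 in the RefSeq order of coding genes. FUT3 is the Lewis blood group gene, whose enzyme adds fucose in both the alpha-1,3 and the alpha-1,4 linkage. Its brighter probe set read 7.15, 7.20 and 7.18 in +DOX replicates 1, 2 and 3, against 7.23, 7.25 and 7.31 in -DOX. All +DOX arrays lay below all -DOX arrays, as they did for 8.26% of all probe sets. The means were 7.18 ± 0.02 in +DOX and 7.26 ± 0.04 in -DOX (SD, n = 3 each). The difference was -0.08 (SE 0.04; 95% confidence interval -0.17 to 0.01; limma, adjusted p = 0.675). The two-sided exact test gave 0.1, the smallest p it can give. That corresponds to a ratio of 0.945.

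The second FUT3 probe set gave a difference of like size. It read 6.82, 6.73 and 6.76 in +DOX, against 6.86, 6.89 and 6.78 in -DOX. The groups overlapped through +DOX replicate 1 and -DOX replicate 3. The difference was -0.08 (SE 0.05; 95% confidence interval -0.19 to 0.04; limma, adjusted p = 0.702), and both group means lay under the lower quartile of all probe sets, 6.88. Its name carries the x that Affymetrix gives to probe sets with probes that can match other sequences, as does the name of the FUT6 probe set. Signal from the neighbouring FUT genes in these probe sets was not tested. The name of the FUT2 probe set carries the letter s, and its specificity was not tested either.

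FUT5, an alpha-1,3/4 enzyme, and FUT6, the alpha-1,3 enzyme of plasma and liver, were the members with the smallest differences. FUT5 read 7.78, 7.82 and 7.75 in +DOX, against 7.84, 7.83 and 7.73 in -DOX, a difference of -0.01 (SE 0.04; 95% confidence interval -0.12 to 0.09; limma, adjusted p = 0.941). FUT6 read 8.13, 8.22 and 8.12 in +DOX, against 8.15, 8.22 and 8.13 in -DOX, a difference of -0.01 (SE 0.05; 95% confidence interval -0.12 to 0.10; limma, adjusted p = 0.959). The groups lay over each other for both genes. As ratios, the intervals ran from 0.920 to 1.07 for FUT5 and from 0.917 to 1.07 for FUT6. The direction of such small differences was not stable: both turned positive once the arrays were centred on their medians, and FUT6 also when the arrays were quantile normalized again.

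**Figure D2:**
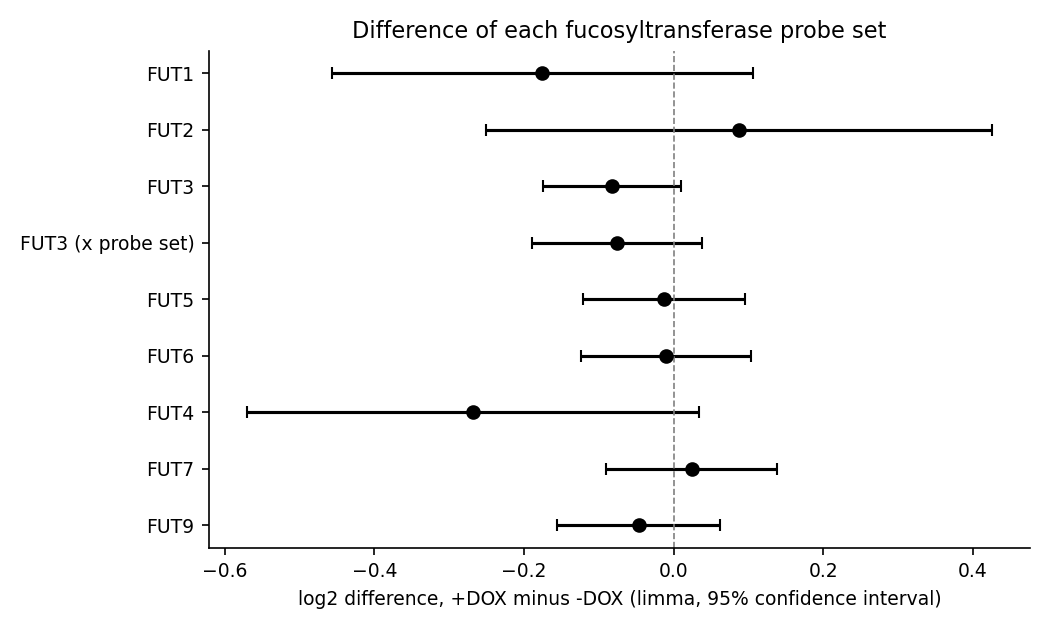
Log2 difference, +DOX minus -DOX, of each fucosyltransferase probe set (points) with its 95% confidence interval from limma (bars). FUT4, FUT1 and FUT2 have the widest intervals, and every interval holds 0.

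FUT4 had the largest difference of the members. Its alpha-1,3 enzyme makes Lewis x, also known as CD15, in many cell types. It read 8.24, 8.21 and 8.15 in +DOX replicates 1, 2 and 3, against 8.48, 8.22 and 8.70 in -DOX. The +DOX arrays were close together, while -DOX replicates 1 and 3 lay above them and -DOX replicate 2 lay within their range. The means were 8.20 ± 0.04 in +DOX and 8.47 ± 0.24 in -DOX (SD, n = 3 each), so that the SD was 5.37 times as large in -DOX. The difference was -0.27 (SE 0.12; 95% confidence interval -0.57 to 0.03; limma, adjusted p = 0.675), a ratio of 0.830, with 0.2 from the exact permutation test. Without -DOX replicate 3 the difference was -0.15 and without -DOX replicate 2 it was -0.39 (limma, adjusted p = 0.112). Over all the alternatives tried, its adjusted p ran from 0.112 to 0.903. ACVR2A and TGFBR2 showed the same order of -DOX replicates as FUT4, with replicate 3 highest and replicate 2 lowest, as did 21.5% of all probe sets.

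FUT7 and FUT9 complete the alpha-1,3 enzymes. FUT7, which makes sialyl Lewis x in leukocytes, read 7.30, 7.36 and 7.33 in +DOX, against 7.29, 7.38 and 7.25 in -DOX. The groups overlapped, and the difference was 0.02 (SE 0.05; 95% confidence interval -0.09 to 0.14; limma, adjusted p = 0.869); it was -0.0039 without -DOX replicate 3. FUT9, which makes Lewis x in brain, read 6.24, 6.25 and 6.16 in +DOX, against 6.22, 6.30 and 6.29 in -DOX. Its groups overlapped too, at a difference of -0.05 (SE 0.04; 95% confidence interval -0.16 to 0.06; limma, adjusted p = 0.730), and both means were under the lower quartile of all probe sets. Without +DOX replicate 3 the FUT9 difference was -0.02. How much of so dim a signal is background is unknown.

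**Figure D3:**
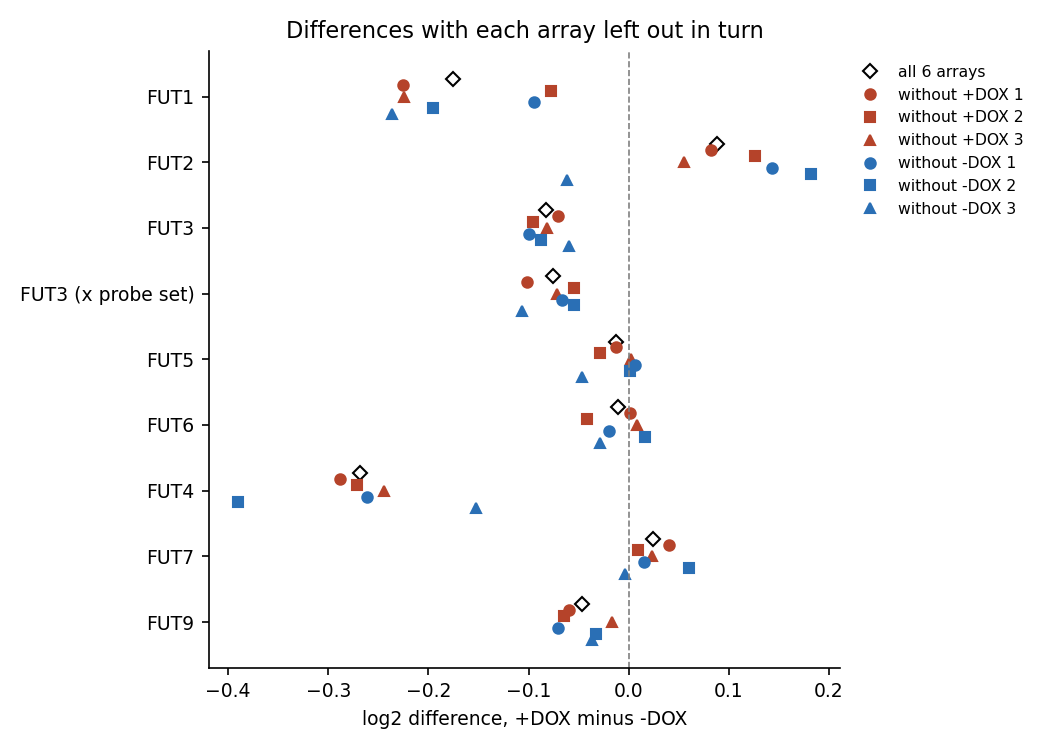
Log2 difference, +DOX minus -DOX, of each fucosyltransferase probe set with all 6 arrays (open diamonds) and with each array left out in turn (filled symbols, red for +DOX and blue for -DOX). The spread is widest for FUT2, from -0.06 to 0.18, and FUT4, from -0.39 to -0.15. FUT1, both FUT3 probe sets, FUT4 and FUT9 stay below 0 throughout.

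The members varied differently among the 6 arrays. FUT4, FUT1 and FUT2 spanned 0.546, 0.534 and 0.488 log2 units from lowest to highest array, and the other 6 probe sets between 0.103 and 0.161, against a median of 0.217 over all probe sets. The -DOX SD exceeded the +DOX SD for 6 of the 9 probe sets, against 77.1% of all. The array that stood apart was the highest of the 6 for FUT4 and the brighter FUT3 probe set, and the lowest for FUT2, FUT5 and FUT7. That is 5 of 9, against 61.6% of all probe sets. It departed from the mean of the other 2 -DOX arrays by 0.35 log2 units for FUT4 and by -0.45 for FUT2, in opposite directions. For FUT1 the departure was -0.18, and it lay between -0.10 and 0.07 for the remaining probe sets.

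For the 3 members that varied more than the median probe set, the genes with the most similar profiles were sought by the root-mean-square difference between profiles over the 6 arrays, each gene centred on its own mean. For FUT4 these were NONO at 0.0481 log2 units and SNRNP200 at 0.0495, against a root-mean-square deviation of 0.194 for FUT4 itself. For FUT1 they were MAN1B1 at 0.0518 and HS3ST1 at 0.0691, against 0.156 for FUT1 itself. For FUT2 they were MRC2 at 0.0272 and NOTCH4 at 0.0346, against 0.163 for FUT2 itself. NONO and SNRNP200 differed by -0.20 and -0.27 between +DOX and -DOX, MAN1B1 and HS3ST1 by -0.12 and -0.06, and MRC2 and NOTCH4 by 0.10 and 0.14, none past the threshold. All were picked for likeness over the same 6 arrays, so differences like those of the members follow from the choice. The 6 arrays share the same cells and one deposited normalization, and -DOX replicate 3 holds the extreme value of the FUT4 and the FUT2 profiles.

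**Figure D4:**
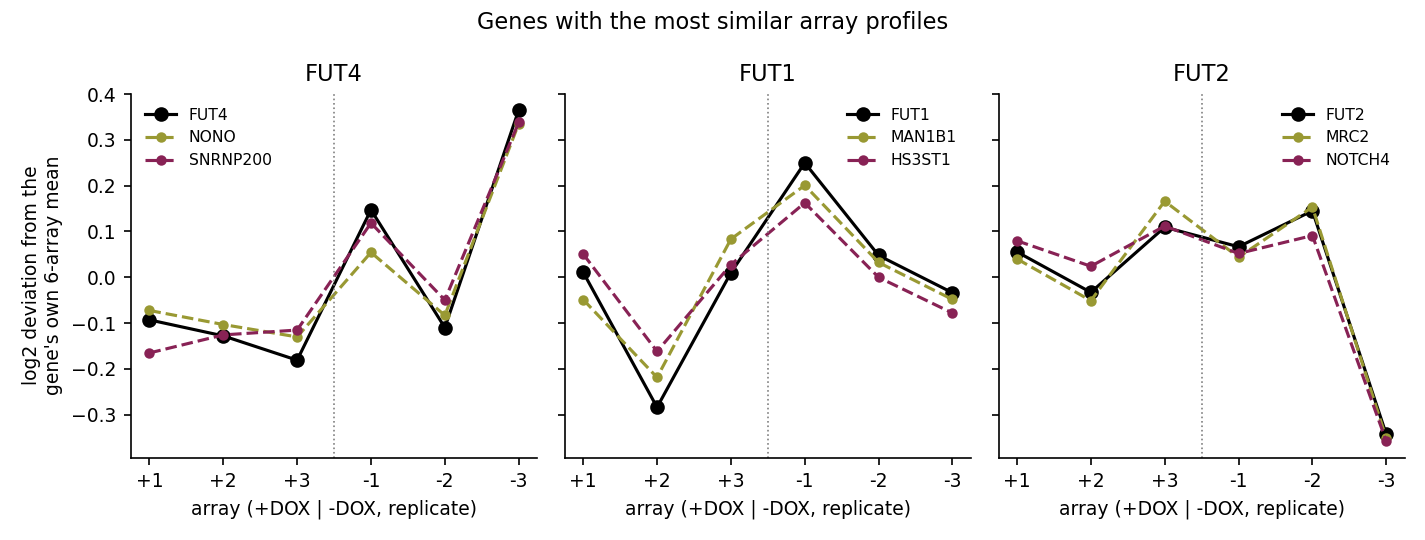
Deviation of log2 expression from each gene's own mean over the 6 arrays, for FUT4, FUT1 and FUT2 (black) and the 2 genes most like each (coloured); a plus or minus before the replicate number marks +DOX or -DOX, and lines only join points of one gene. FUT4 and its 2 companions peak at -DOX replicate 3, where FUT2 and its 2 companions are lowest. The companions were picked for likeness over these 6 arrays, so shared peaks follow from the choice.

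Genes that supply the fucosyltransferases or act beside them also gave 0 calls. The genes named from each list were those of smallest unadjusted p, so non-overlapping groups among them follow in part from that choice. Of 9 measured genes for GDP-fucose supply and transport and for other fucosyltransferases, 5 were higher and 4 lower in +DOX. Their median difference was 0.0057, against -0.01 over the 927 named genes, of which 415 were higher and 512 lower. Groups did not overlap for 2 of the 9 genes, against 15.8% of all probe sets. POFUT4, a protein O-fucosyltransferase formerly called FUT11, read 7.81, 8.001 and 7.86 in +DOX, against 7.62, 7.70 and 7.61 in -DOX. Its groups did not overlap, at a difference of 0.24 (SE 0.06; limma, adjusted p = 0.477) that was 0.23 without -DOX replicate 3. POFUT2, which fucosylates thrombospondin repeats, was at 0.08 with non-overlapping groups and at 0.05 without that array, whereas POFUT3, formerly FUT10, was at -0.15 with overlapping groups and at -0.03 without that array. The fucosidase FUCA1, which removes fucose in lysosomes, was at 0.02 (SE 0.08; limma, adjusted p = 0.959), a sign that turned when single arrays were left out.

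Of 23 measured genes for the chains that these enzymes decorate, 11 had higher and 12 lower values in +DOX (median -0.03). Groups did not overlap for 2 of the 23, against 15.8% of all probe sets. C1GALT1C1, a chaperone needed for core 1 O-glycans, stood at 0.25 (SE 0.07; limma, adjusted p = 0.477) with non-overlapping groups, and at 0.17 without -DOX replicate 3. GCNT2, which makes branched poly-N-acetyllactosamine, was at -0.14, and the galactosyltransferase gene B3GALT2 at -0.10, both with overlapping groups. Of 17 other capping enzymes, which compete for the same chain ends or complete sialyl and sulphated Lewis antigens, 11 had higher and 6 lower values (median 0.0097). Groups did not overlap for 2 of the 17. ST3GAL1, a sialyltransferase of O-glycans, was at -0.19 (SE 0.06; limma, adjusted p = 0.482) with non-overlapping groups, ST6GAL1, the alpha-2,6 sialyltransferase of N-glycans, at -0.31 and ST3GAL2 at 0.13; without -DOX replicate 3 they were at -0.13, -0.17 and 0.04.

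Of 12 measured selectins, other lectins and carrier proteins, 2 had higher and 10 lower values (median -0.04), against 55.2% lower over all named genes. The 10 lower differences ran from -0.0053 for SELPLG to -0.43 for PODXL, none past the threshold. PODXL, a sialomucin that can carry selectin ligands, was at -0.43 (SE 0.19; limma, adjusted p = 0.669) and at -0.26 without -DOX replicate 3. MUC1, a membrane mucin, was at -0.13 (SE 0.06, limma, adjusted p = 0.673), with non-overlapping groups. Such groups were seen for 3 of the 12 genes, against 15.8% of all probe sets.

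**Figure D5:**
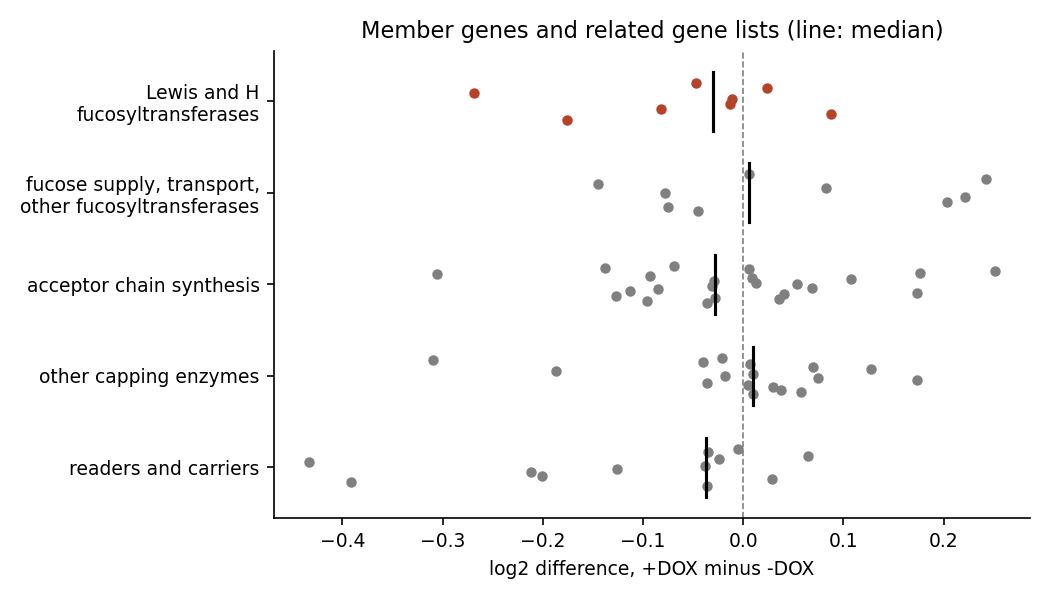
Log2 difference, +DOX minus -DOX, of each gene (points) in the fucosyltransferase group (red) and in 4 lists of related genes (grey), with the median of each as a vertical line. Medians lie between -0.04 and 0.0097, and single genes scatter to both sides of 0.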

How the data were processed

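The deposited table holds log2 expression values of 1259 probe sets on 6 arrays. The authors made them with RMA (version not given in the sources used here), per the submitters' processing notes. This method corrects background, quantile normalizes arrays and summarises probes, so arrays share nearly one distribution (medians 7.61 to 7.65). Total RNA was extracted with Trizol and labelled as biotinylated cRNA, per the labels' protocols. Scanner files and genome build are not used here.

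Accessions were matched without version to RefSeq genes (GRCh38.p14): 1043 probe sets had 1 symbol, 190 no accession and 26 an accession outside the table. The brightest probe set on average stood for a gene that had more than 1. The +DOX and -DOX arrays were tested against each other in limma 3.58.1 (R 4.3.3, two-sided, all probe sets, Benjamini-Hochberg, threshold 0.05), with an exact permutation test beside it. The limma fit was also tried on simulated data with equal spread in both groups and no array standing apart. The real arrays differ from that setting, so the simulation does not show how the test behaves on them. The genes named are all members, ACVR2A and TGFBR2 (AIM2, also in the rule, is not analysed here), at most 3 genes of smallest p per related list, and the 2 nearest profiles for each variable member; 1 gene that this rule takes is not reported here. Members and lists were chosen with earlier results of these data known. Alternatives were median centring, renewed quantile normalization, array weights, an intensity trend, removal of dim probe sets, a replicate block and leaving out each array. The number of arrays limits the precision.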

Additional observations from a re-analysis of the deposited data

How the results depend on the processing

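The 9 fucosyltransferase probe sets gave 0 calls under every alternative run, and FUT1, both FUT3 probe sets, FUT4 and FUT9 kept their sign in each that included them; removal of dim probe sets took out FUT9 and the second FUT3 probe set. With array weights 1 of the 1259 probe sets passed, no member among them (the weights' iteration stopped short of its tolerance). FUT2 was then at -0.0018. The weights were 0.198 for -DOX replicate 3 and 0.393 for -DOX replicate 2, and from 1.28 to 3.36 for the other arrays. Centring each array on its median moved FUT5 to 0.0067, FUT6 to 0.0090 and the median of selectins and carriers to -0.017; renewed quantile normalization moved FUT6 to 0.013 and the acceptor chain median to 0.00072. Without dim probe sets the acceptor median was 0.0073 and that of selectins and carriers -0.082. Leaving out single arrays gave -0.062 to 0.18 for FUT2, -0.047 to 0.0059 for FUT5, -0.042 to 0.016 for FUT6, -0.0039 to 0.061 for FUT7, and medians of -0.047 to 0.067 for fucose supply, -0.028 to 0.025 for acceptor chains, -0.0068 to 0.042 for capping enzymes and -0.053 to -0.039 for selectins and carriers. FUCA1 ran from -0.059 to 0.090 without single arrays and was at -0.059 with array weights. The cause was not tested. The labels do not say whether arrays of equal replicate number were handled together. Over probe sets, their deviations from the group means correlated at -0.15, -0.04 and -0.16. With 3 arrays per group and -DOX replicate 3 standing apart, these correlations cannot decide it. With the replicate block there were 0 calls and FUT4 had an adjusted p of 0.742 (limma). No detection calls were at hand, so signal over background is unknown.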

Other observations

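Several genes of the fucose pathway and the carrier gene CD44, chosen after their values were seen, had differences that rested on, or turned with, a single array. GMDS and GFUS, which together make GDP-fucose from GDP-mannose, read 9.66, 9.60 and 9.72 and 10.56, 10.52 and 10.73 in +DOX, against 9.68, 9.66 and 8.97 and 10.54, 10.64 and 10.02 in -DOX. Their differences of 0.22 and 0.20 (limma, adjusted p = 0.730 for both) were -0.01 and 0.02 without -DOX replicate 3. FUT8, the core fucosyltransferase, read 9.85, 9.84 and 9.85 in +DOX, against 9.94, 9.44 and 10.39 in -DOX, and its difference of -0.08 (limma, adjusted p = 0.933) was 0.16 without that array. CD44, a cell adhesion protein that can carry selectin ligands, was at -0.39 (limma, adjusted p = 0.710), and at -0.11 without it.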
